A study of Mus musculus with 4 samples.

Results

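The genes described are those of 7 proteoglycans (Dcn, Lum, Bgn, Fmod, Ogn, Aspn and Vcan), 2 hyaluronan synthases (Has1 and Has2) and a hyaluronan receptor (Cd44). They were taken by symbol from the deposited gene tables, where all 10 are present, each under 1 entry, among 27998 genes. Their transcripts were counted cell by cell in 2 pancreatic tumors. The tumors grew in KPC mice on the C57BL/6J background, which carry KrasLSL-G12D/+, Trp53LSL-R172H/+ and Pdx1-Cre. The Cre recombinase is driven by the Pdx1 promoter, which is active in the pancreatic epithelial lineage, so the 2 mutant alleles are switched on in that lineage, while every cell of the mouse, fibroblasts included, carries them in the germline. Each tumor gave a sorted CAF library, made from DAPI- CD45- CD31- EpCAM- PDPN+ cells and named for cancer-associated fibroblasts, and an all live library, made from DAPI- cells. All 4 libraries share the genotype, and there is no normal pancreas among them.

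The sorted CAF libraries of tumors 1 and 2 kept 1386 and 1208 cells after filters, and the all live libraries kept 1903 and 3324. The 4 libraries held between 14972652 and 30950993 UMIs, which are molecules counted once each, and any pair of libraries shared between 4 and 6 cell barcodes. Cells were grouped by fixed marker genes that include none of the 10, with clusters built on a random set of genes that also excluded them. The sorted CAF library of tumor 1 stood apart from its label: 48.6% of its cells were ductal epithelial-like and 13.3% fibroblast-like, against 7.37% and 73.8% in the sorted CAF library of tumor 2. The comparisons of classes and of fractions are given with and without that library, and the comparison of fibroblast states was not fitted without it. Fibroblast-like cells held UMIs of all 8 fibroblast markers in every library, and mesothelial-like cells held UMIs of all 8 mesothelial markers. The same markers named these classes, so this is no separate check of the names. Of the 8 markers, 6 counted toward naming in the mesothelial-like cluster. In the fibroblast-like clusters led by Cxcl14, Clec3b and Cpxm2, 8, 8 and 6 of 8 counted. Cells of clusters left unnamed made up 27.6% of sorted CAF 1 and 20.4% of all live 1. They made up 3.23% of sorted CAF 2 and 3.94% of all live 2. The largest such cluster was led by Npy, with 528 cells, where 1 of 10 ductal epithelial markers counted. Another, led by Fabp2, had 261 cells. Unnamed cells are in none of the class comparisons, so the ductal epithelial-like class may not hold all epithelial cells.

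Proteoglycans are proteins that carry long sulfated sugar chains. Small leucine-rich proteoglycans such as decorin (Dcn) bind collagen fibrils and set their diameter and spacing, and decorin and biglycan (Bgn) also bind growth factors of the TGF-beta family. Versican (Vcan) is a large chondroitin sulfate proteoglycan that binds hyaluronan, an unsulfated sugar polymer made at the plasma membrane by the Has enzymes and bound on the cell surface by CD44. Pancreatic tumors are known for a dense stroma rich in collagen and hyaluronan.

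Several of these genes lie next to each other in the mouse genome (RefSeq, build GRCm38.p6, the same coordinates as mm10). Dcn (chr10:97479500-97518163) and Lum (chr10:97565501-97572703) are neighbours, 47337 bases apart. Aspn (chr13:49544443-49567565) and Ogn (chr13:49608015-49624501) lie in 1 cluster of leucine-rich repeat genes with Ecm2 and Omd, inside the annotated span of Cenpp. Fmod is at chr1:134037254-134048280, Bgn at chrX:73483601-73495936, Vcan at chr13:89655309-89743027, Has1 at chr17:17833691-17855589, Has2 at chr15:56665627-56694546 and Cd44 at chr2:102811141-102901669. Has1 overlaps Spaca6 and Gm36907, Has2 overlaps Has2os, Vcan overlaps Gm16318 and Gm4117, and Cd44 overlaps Gm23731. The sources used here do not give whether the counting used strand, so reads in those overlaps are uncertain.

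Promoters are shown for some of the genes that were called between the fibroblast states in at least 1 of the fits below. They are Ogn and Aspn, which lie in 1 gene cluster and were higher in inflammatory-like fibroblasts of both tumors, and Fmod, which was lower in them. Each line holds the 250 bases before the annotated start, on the plus strand, from RefSeq (GRCm38.p6). These are chr13:49544193-49544442 for Aspn, chr13:49607765-49608014 for Ogn and chr1:134037004-134037253 for Fmod.
Aspn: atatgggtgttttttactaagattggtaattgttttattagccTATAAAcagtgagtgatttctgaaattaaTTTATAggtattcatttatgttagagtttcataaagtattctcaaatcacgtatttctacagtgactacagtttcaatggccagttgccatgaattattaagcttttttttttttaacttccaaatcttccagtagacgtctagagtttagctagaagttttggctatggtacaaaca
Ogn: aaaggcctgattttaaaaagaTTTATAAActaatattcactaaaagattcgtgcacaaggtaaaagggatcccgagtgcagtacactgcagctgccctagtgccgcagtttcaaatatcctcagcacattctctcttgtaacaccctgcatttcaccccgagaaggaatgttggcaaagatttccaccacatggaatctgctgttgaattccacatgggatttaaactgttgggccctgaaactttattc
Fmod: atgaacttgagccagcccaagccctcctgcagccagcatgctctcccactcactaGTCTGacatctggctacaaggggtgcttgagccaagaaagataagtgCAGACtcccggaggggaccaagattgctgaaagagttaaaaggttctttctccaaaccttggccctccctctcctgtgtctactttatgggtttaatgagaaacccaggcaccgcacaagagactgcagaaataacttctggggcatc
The capitals mark matches on either strand, to TATAAA in Aspn and Ogn and to CAGAC, the SMAD-binding element, in Fmod. The 2 matches in Ogn overlap each other. The window of Has1, which was also higher in inflammatory-like fibroblasts, is not shown. It holds CAGAC matches that start 94 and 18 bases before the annotated start. TATAAA is held by 12.4% and CAGAC by 42.2% of the 32851 RefSeq promoter windows of this length. TGANTCA, the AP-1 site (6.75% of windows), and the CArG box (1.47%) had no match in the 3 windows. The Aspn window is 30% G and C, the Ogn window 42% and the Fmod window 51.2%. A match describes the letters only.

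Decorin, lumican, biglycan and the hyaluronan synthases were genes of the fibroblast-like cells, and decorin and Has1 also stood high in mesothelial-like cells. Levels below are CPM, the UMIs of a gene per 1000000 UMIs of the class, which in a library tagged at transcript ends are not divided by gene length, and levels of different genes are not ranked. Dcn stood at 6667 and 5229 CPM in fibroblast-like cells of tumors 1 and 2, against 9151 and 6628 CPM in mesothelial-like cells and 9.58 and 23.7 CPM in ductal epithelial-like cells. Both mesothelial-like values lay above the fibroblast-like value of the same tumor, and both ductal values were far below. In pericyte-like cells of tumor 2, Dcn was at 162 CPM. The 32 adipocyte-like cells of sorted CAF 2 held Dcn at 3655, Bgn at 535, Lum at 262 and Has1 at 131 CPM. Vcan stood at 136 and Has2 at 17.7 CPM in them. The other libraries held too few such cells for a sum, and this class was not tested.

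**Figure D1:**
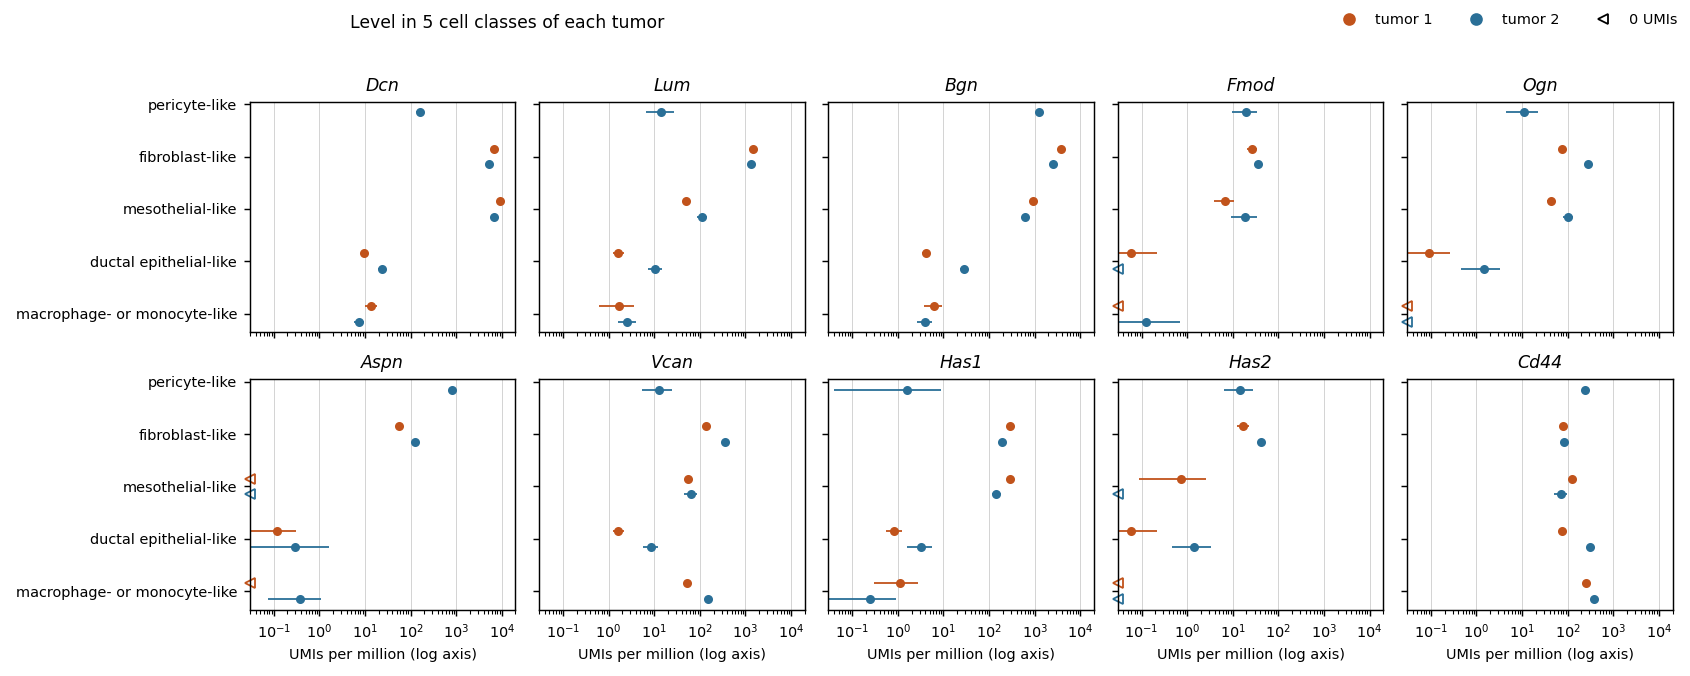
CPM (log axis) of each gene in 5 cell classes, by tumor, with exact Poisson 95% intervals and open triangles where no UMI was found. Fibroblast-like cells led ductal epithelial-like cells in both tumors for every gene but Cd44, Aspn was highest in pericyte-like cells (805 CPM), and mesothelial-like cells held Dcn and Has1 but no Aspn.

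Lumican, a second collagen-binding member, separated fibroblast-like from mesothelial-like cells, which shared decorin. Lum stood at 1506 and 1360 CPM in fibroblast-like cells of tumors 1 and 2, against 50.9 and 110.7 CPM in mesothelial-like cells and 1.64 and 10.6 CPM in ductal epithelial-like cells. The fibroblast-like and mesothelial-like ranges did not overlap. Bgn was spread more widely, at 3875 and 2570 CPM in fibroblast-like cells, against 916 and 599 CPM in mesothelial-like cells and 4.08 and 27.7 CPM in ductal epithelial-like cells. It was also held by blood endothelial-like cells, at 326 CPM over all libraries.

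Osteoglycin (Ogn) and fibromodulin (Fmod), of the same family, had the same order of classes. Ogn stood at 74.6 and 275 CPM in fibroblast-like cells of tumors 1 and 2, against 42.5 and 103.9 CPM in mesothelial-like cells. The value of tumor 2 was the higher in both classes. Fmod stood at 26.4 and 35.5 CPM in fibroblast-like cells, against 6.59 and 18.7 CPM in mesothelial-like cells. In ductal epithelial-like cells Ogn had 3 and 5 UMIs and Fmod 2 and 0 UMIs in tumors 1 and 2.

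The hyaluronan synthases parted in the mesothelial-like cells. Has1 stood at 287 and 193.5 CPM in fibroblast-like cells of tumors 1 and 2, against 284 and 144.7 CPM in mesothelial-like cells and 0.833 and 3.14 CPM in ductal epithelial-like cells. The fibroblast-like and mesothelial-like values overlapped. Has2 stood at 17.0 and 42.3 CPM in fibroblast-like cells, against 0.732 and 0 CPM in mesothelial-like cells, where 254 and 45 cells held 2 UMIs and 0 UMIs. After each cell was thinned to 3000 UMIs, 119 of 332 and 252 of 983 fibroblast-like cells of tumors 1 and 2 had a Has1 UMI, 15 and 86 had a Has2 UMI, and 7 and 29 had both, where independent detection would give 5.38 and 22.1. Most cells with a Has1 UMI had none of Has2, which the low number of cells with Has2 makes certain at that depth. Both were found together slightly more often than independent detection would give, and that difference was not tested.

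Versican and Cd44 were not confined to stroma. Vcan stood at 139.8 and 353 CPM in fibroblast-like cells of tumors 1 and 2, against 56.0 and 64.7 CPM in mesothelial-like cells, 52.5 and 154.8 CPM in macrophage- or monocyte-like cells and 1.64 and 8.57 CPM in ductal epithelial-like cells. Among the macrophage- or monocyte-like clusters it was highest, at 320 CPM, in the one led by Ly6c2 and Ccr2, genes of inflammatory monocytes, and ranged from 30.9 to 82.1 CPM in the other 4. Cd44 stood at 79.9 and 81.4 CPM in fibroblast-like cells, against 127 and 69.8 CPM in mesothelial-like cells, 73.9 and 313 CPM in ductal epithelial-like cells and 253 and 377 CPM in macrophage- or monocyte-like cells. The ductal epithelial-like cells of the 2 tumors fell in different clusters. In tumor 1, 574 were in a cycling cluster and 768 in one led by Ckmt1, with Cd44 at 79.7 and 59.3 CPM. In tumor 2, 203 were in a cluster led by Gkn3, where Cd44 stood at 303 CPM, and 36 in one led by Wfdc18, at 477 CPM. The 30 cells of tumor 1 in the Gkn3-led cluster held 542 CPM of Cd44, so the pooled ductal values of the tumors do not compare like cells.

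The low counts in ductal cells were set beside the level of the whole library, since free RNA puts UMIs of abundant genes into cells that do not make them. In ductal epithelial-like cells of sorted CAF 1, sorted CAF 2, all live 1 and all live 2, Dcn stood at 0.953%, 0.952%, 1.403% and 0.912% of the level of its own library. The Dcn levels of those libraries ran from 377 to 4004 CPM. Ductal Lum stood at 0% to 2.16%, Bgn at 1.45% to 2.78%, Has1 at 2.62% to 5.2%, Vcan at 3.35% to 12.96% and Has2 at 4.56% to 65.99% of the level of their library. The Has2 values rest on 1, 3, 1 and 2 ductal UMIs in those libraries, and the 65.99% of all live 2 on 2 UMIs. The part of free RNA in these ductal counts was not tested, and ratios to them depend on it. Ductal Cd44 stood at 73.5% to 235% of the level of its library.

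The first test asked which members differed between fibroblast-like and ductal epithelial-like cells over the 2 tumors (edgeR's quasi-likelihood test on sums of UMIs per tumor and class, Benjamini-Hochberg adjustment over all 5854 genes tested, n = 2 tumors). Of the 10 members, 9 were called and all 9 were higher in fibroblast-like cells, where 21% of all genes tested were called, 13.2% higher and 7.81% lower. With the tumor as a block the same 9 were called, where 26.8% of genes were called, 16.4% higher and 10.4% lower. Their log2 fold changes ran from 5.80 ± 0.85 (SE) for Vcan, with an adjusted p of 0.003, to 9.03 ± 0.81 for Aspn, with an adjusted p of 0.001. Dcn was 8.51 ± 0.60 higher (adjusted p = 0.00076) and Lum 8.06 ± 0.95 (adjusted p = 0.0014). Cd44 was not called, with a log2 fold change of -1.20 ± 0.59 and an adjusted p of 0.20. Its adjusted p was 0.015 without the ductal cells of tumor 1. Has2, at 6.31 ± 1.22 and an adjusted p of 0.0088, lost its call with clusters built on the other set of genes (0.051) and without the fibroblast-like cells of tumor 2 (0.10). With the cells of the sorted CAF library of tumor 1 left out, 9 members were again called. Fmod had no UMI in ductal cells of tumor 2, and set against 3 counts its level in fibroblast-like cells of that tumor was at least 41.4-fold higher.

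Asporin (Aspn), a family member that lacks a sugar chain, divided the mesenchymal classes in another way. It stood at 55.8 and 125 CPM in fibroblast-like cells of tumors 1 and 2, against 0 UMIs in all 254 and 45 mesothelial-like cells, which allows up to 1.10 and 5.11 CPM. Set against that limit of 3 counts in each tumor, Aspn was at least 50.8-fold higher in fibroblast-like cells of tumor 1 and at least 24.5-fold higher in tumor 2. It was the only member called between these classes by the same fit, at an adjusted p of 0.025, where 0.735% of 5854 genes were called, 0.393% higher and 0.342% lower. With either tumor's sum of either class left out, its adjusted p lay between 0.063 and 0.13, and it was 0.044 with the cells of the sorted CAF library of tumor 1 left out.

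With the tumor as a block, which the shared origin of the libraries calls for, Lum was also called between fibroblast-like and mesothelial-like cells, at a log2 fold change of 4.42 ± 0.62 and an adjusted p of 0.026 (edgeR, 2.17% of genes called, 1.16% higher and 1.01% lower). Without the block its adjusted p was 0.061. Dcn, with a log2 fold change of -0.35 ± 0.43, Has1, with 0.21 ± 0.55, and Cd44, with -0.24 ± 0.59, had errors as large as or larger than the difference. Ductal epithelial markers summed to between 1097 and 2939 CPM in mesothelial-like cells of the 4 libraries, against 58.3 to 788 CPM in fibroblast-like cells. Markers of antigen-presenting fibroblasts summed to between 11230 and 47170 CPM in mesothelial-like cells, against 428 to 791.5 CPM in fibroblast-like cells. The part of either list in these values was not tested.

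Pericyte-like cells, the contractile cells around small vessels, numbered 4 in tumor 1 and 77 in tumor 2, so they were described in tumor 2 alone and not tested. Aspn stood there at 805 CPM in pericyte-like cells, against 125 CPM in fibroblast-like cells, a ratio of 6.43 (95% interval 5.80 to 7.12, counting error only). The 4 pericyte-like cells of tumor 1 held 18 Aspn UMIs, and all 4 had at least 1. Cd44 was also higher in pericyte-like cells, at 239 CPM against 81.4 CPM in fibroblast-like cells. Bgn stood at 1215 CPM in pericyte-like cells, against 2570 CPM in fibroblast-like cells. Other members were lower, with Lum at 14.3 CPM, Ogn at 11.1 CPM and Vcan at 12.7 CPM in pericyte-like cells, against 1360, 275 and 353 CPM in fibroblast-like cells. The 9 pericyte markers all had UMIs in the sorted CAF and the all live library of tumor 2, where they summed to 6908 and 9579 CPM. The same markers named the class. Its leading genes also included Myh11 and Lmod1, which are smooth muscle markers. Pericytes and smooth muscle cells were not told apart in this class.

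The share of each gene's UMIs that a class held followed from these levels and from how many cells of the class a library caught. Fibroblast-like cells held 42.6% of the Dcn UMIs in sorted CAF 1 and 38.8% in all live 1, against 56.4% and 59.0% in mesothelial-like cells of those libraries. In tumor 2 fibroblast-like cells held 92.2% and 83.8% of them. Lum came from fibroblast-like cells at 93.7% to 98.6% in all 4 libraries. Macrophage- or monocyte-like cells held 78.1% of the Vcan UMIs in all live 2, where fibroblast-like cells held 13.8%, and pericyte-like cells held 50.6% of the Aspn UMIs of that library. Unnamed cells held 28.2% of the Cd44 UMIs in sorted CAF 1 and 17.8% in all live 1. Of the Vcan UMIs they held 15.8% and 13.5% in those libraries.

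**Figure D2:**
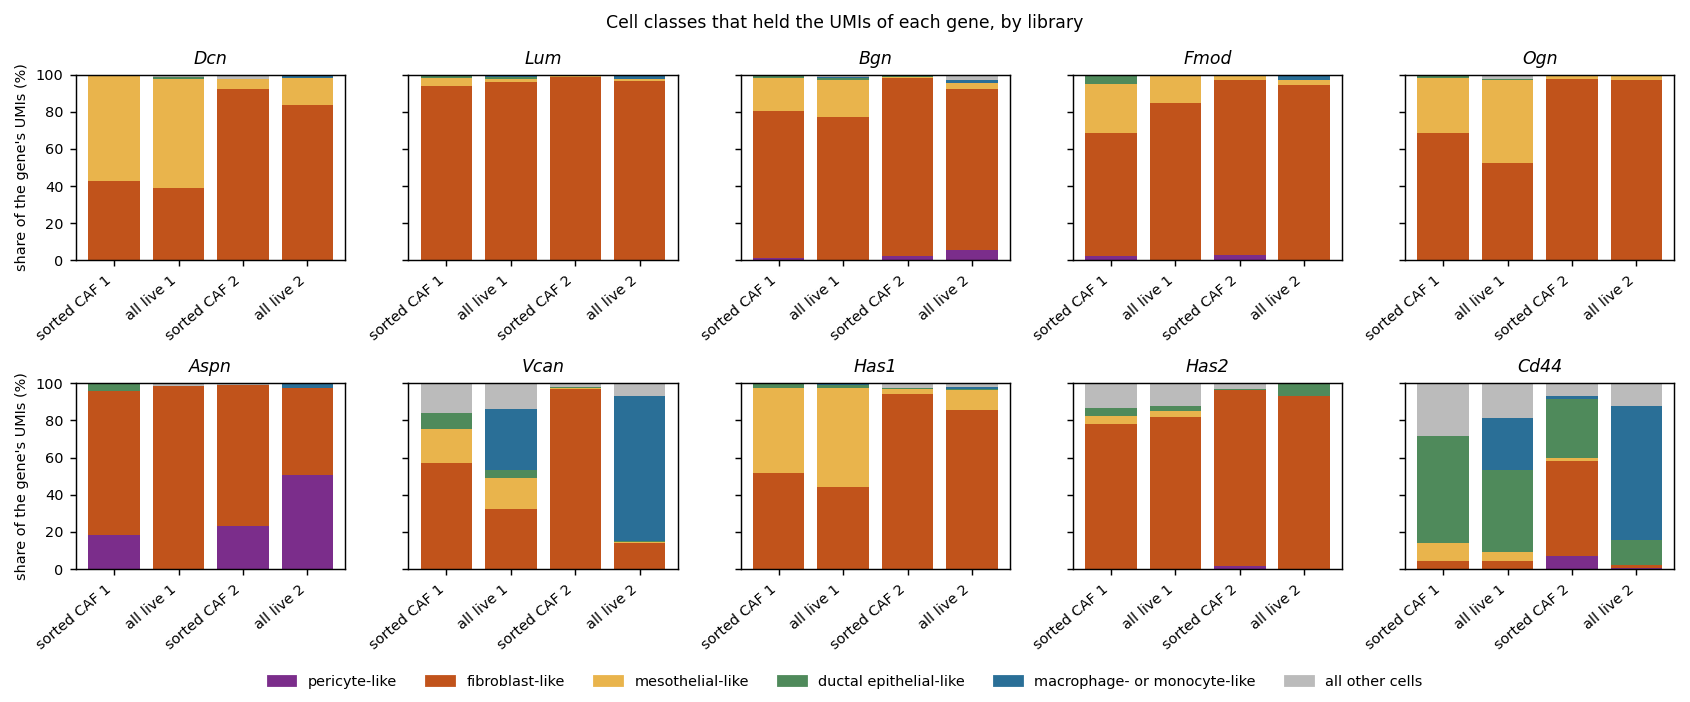
Share of each gene's UMIs (%) held by 5 cell classes and by all other cells, in the 4 libraries (bars). Lum came from fibroblast-like cells in every library (93.7% to 98.6%), Dcn and Has1 of tumor 1 came in large part from mesothelial-like cells, and Vcan and Cd44 of all live 2 came mostly from macrophage- or monocyte-like cells.

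Fibroblast-like cells were then split into states, since KPC tumors are known to hold an inflammatory and a contractile fibroblast state. An inflammatory-like subcluster, led by Cxcl13, Clec3b and Cd55, held 30 cells of tumor 1 and 277 of tumor 2. The 3 myofibroblast-like subclusters held 231 and 466 cells. Different subclusters made up most of the myofibroblast-like cells of each tumor: 202 of 231 in tumor 1 were of one led by Gpnmb, which held 4 cells of tumor 2, and 339 of 466 in tumor 2 were of one led by Serpine2. Tumor 1 had 12 cycling cells and tumor 2 had 123 in the third. The Gpnmb-led subcluster took its name from 3 of 15 myofibroblast markers, and its marker sums go partly against it: in tumor 1 inflammatory markers summed to 6626 CPM there and myofibroblast markers to 4112 CPM. The same sums were 8872 and 2697 CPM in inflammatory-like cells of tumor 1, and 1978 and 9420 CPM in Serpine2-led cells of tumor 2. The contrast of states in tumor 1 rests on that subcluster, so the contrasts of the 2 tumors are not of like cells. Calls and some fold changes without it are given below, but not the levels of tumor 1.

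Osteoglycin, asporin and Has1 were higher, and fibromodulin lower, in inflammatory-like than in myofibroblast-like cells of both tumors. In tumor 1 the myofibroblast-like cells were mostly the Gpnmb-led ones. Ogn stood at 185.7 and 701 CPM in inflammatory-like cells of tumors 1 and 2, against 74.9 and 90.8 CPM in myofibroblast-like cells. Aspn stood at 160.4 and 256 CPM in inflammatory-like cells, against 57.5 and 62.4 CPM in myofibroblast-like cells. Has1 stood at 688 and 498 CPM in inflammatory-like cells, against 297 and 50.9 CPM in myofibroblast-like cells. For all 3 genes the 2 states did not overlap between or within tumors.

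Fmod showed the opposite order. It had 0 UMIs in the 30 inflammatory-like cells of tumor 1 and 9 UMIs in the 277 of tumor 2, against 63 and 303 UMIs in myofibroblast-like cells (39.0 and 53.5 CPM). Set against 3 counts, its level in inflammatory-like cells of tumor 1 was 3.08-fold lower. The ratio of inflammatory-like to myofibroblast-like cells had a 95% upper limit of 0.411 in tumor 1. In tumor 2 this ratio was 0.0608 (95% interval 0.0275 to 0.117). At 3000 UMIs per cell, 0.370% of inflammatory-like and 12.2% of myofibroblast-like cells of tumor 2 had a Fmod UMI.

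**Figure D3:**
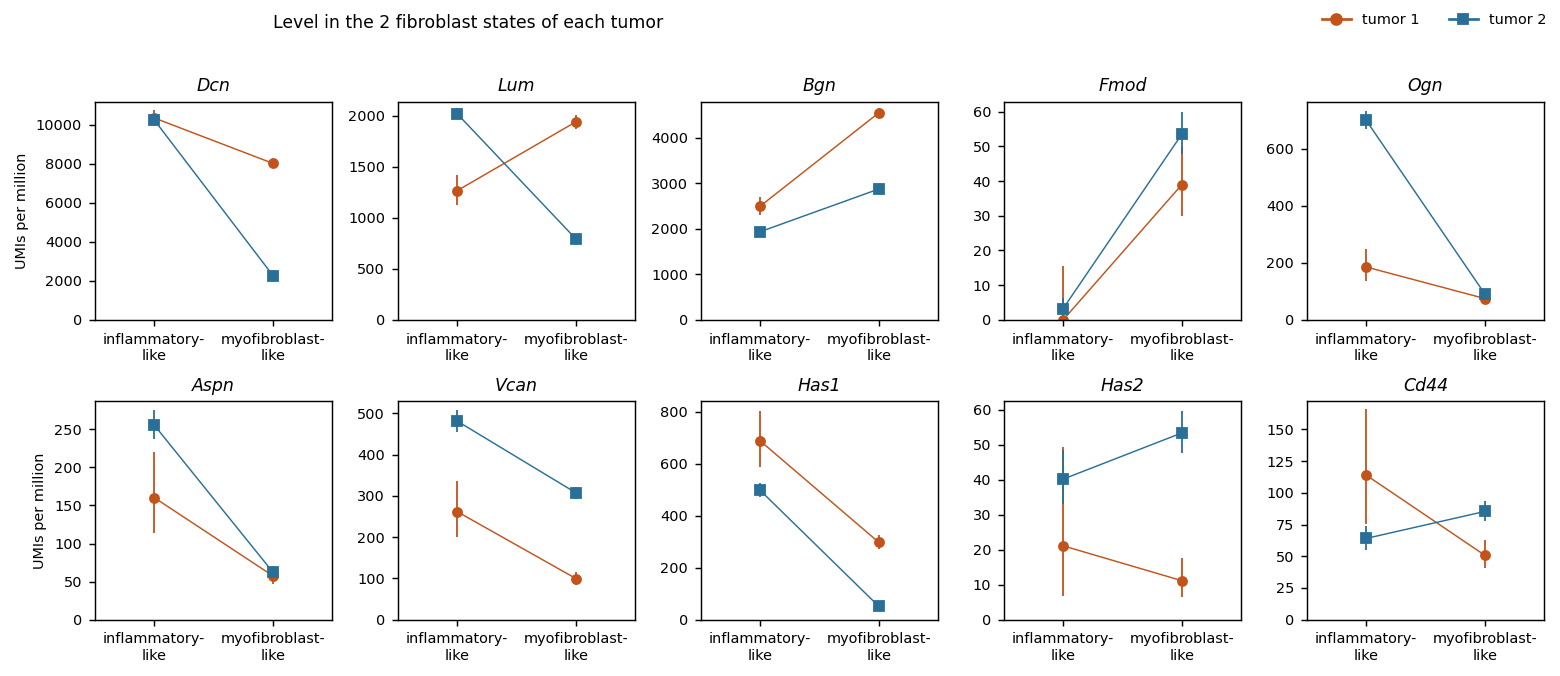
CPM of each gene in inflammatory-like (left) and myofibroblast-like cells (right) of each tumor, with exact Poisson 95% intervals and lines joining the values of a tumor. Ogn, Aspn, Has1, Dcn and Vcan were higher and Fmod and Bgn lower in inflammatory-like cells of both tumors, while Lum, Has2 and Cd44 went opposite ways in the 2 tumors.

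Without a block, Fmod was the only member called between the states, at a log2 fold change of -3.90 ± 0.62 and an adjusted p of 0.013 (edgeR's quasi-likelihood test, Benjamini-Hochberg adjustment over 4974 genes, n = 2 tumors, 1.29% of genes called, 0.503% higher and 0.784% lower). With the tumor as a block 5 members were called, where 5.79% of genes were called, 2.79% higher and 3% lower. Higher in inflammatory-like cells were then Dcn (1.33 ± 0.27, adjusted p = 0.00037), Ogn (2.27 ± 0.40, adjusted p = 2.1e-05), Aspn (1.85 ± 0.37, adjusted p = 0.00022) and Has1 (2.32 ± 0.39, adjusted p = 1.3e-05), and lower was Fmod (-4.08 ± 0.59, adjusted p = 4.9e-07). Without the block the adjusted p-values were 0.81 for Dcn, 0.064 for Ogn, 0.053 for Aspn and 0.29 for Has1. Ratios of inflammatory-like to myofibroblast-like cells in tumors 1 and 2 were 1.29 and 4.51 for Dcn and 2.48 and 7.72 for Ogn. For Aspn they were 2.79 and 4.10, and for Has1 2.32 and 9.78. The blocked fit has few sums to estimate error gene by gene, so its errors draw on other genes. Those errors do not show how far the ratios differ between the tumors. The Fmod call without the block was lost with clusters built on the other set of genes (adjusted p = 0.72), with called doublets kept (0.50) and without the inflammatory-like cells of tumor 2 (0.43).

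Dcn differed between the states in tumor 2 much more than in tumor 1. It stood at 10340 and 10240 CPM in inflammatory-like cells of tumors 1 and 2, against 8011 and 2270 CPM in myofibroblast-like cells. The Gpnmb-led cells that made up most myofibroblast-like cells of tumor 1 held 9464 CPM of Dcn, against 2245 CPM in the Serpine2-led cells of tumor 2. With the Gpnmb-led subcluster left out, an alternative chosen after the data were seen, the same 5 members were called without a block, and Dcn was 2.23 ± 0.35 higher in inflammatory-like cells (edgeR, adjusted p = 0.0027). In tumor 1 that leaves 29 myofibroblast-like cells, which include the cycling ones.

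The remaining members were not called between the states. Bgn stood at 2499 and 1938 CPM in inflammatory-like cells of tumors 1 and 2, against 4555 and 2878 CPM in myofibroblast-like cells, and its log2 fold change of -0.69 ± 0.49 had an adjusted p of 0.95. Vcan stood at 262 and 481 CPM in inflammatory-like cells, against 99.6 and 307 CPM in myofibroblast-like cells, with 0.95 ± 0.56 and an adjusted p of 0.82 (0.062 with the block). Both genes kept one direction in both tumors. Has2, at 21.1 and 40.1 CPM in inflammatory-like cells, against 11.1 and 53.4 CPM in myofibroblast-like cells, overlapped between the states. Lum stood at 1266 and 2020 CPM in inflammatory-like cells, against 1941 and 793 CPM in myofibroblast-like cells. Cd44 stood at 114 and 64.0 CPM in inflammatory-like cells, against 50.7 and 85.3 CPM in myofibroblast-like cells. For these 3 genes the tumors differed in which state was higher.

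Over tumors 1 and 2, ductal epithelial markers summed to 173 and 28.6 CPM in inflammatory-like cells, against 208 CPM in Gpnmb-led cells of tumor 1 and 60.5 CPM in Serpine2-led cells of tumor 2. Pericyte markers summed to 135 and 90.1 CPM in inflammatory-like cells, against 222 and 188 CPM in those myofibroblast-like cells. In the cycling cells of tumor 2 the ductal list summed to 34.9 and the pericyte list to 199 CPM. Neutrophil markers summed to 147.7 and 100.9 CPM in inflammatory-like cells of tumors 1 and 2, against 321 CPM in Gpnmb-led cells of tumor 1 and 134 and 94.2 CPM in Serpine2-led and cycling cells of tumor 2. The part of these lists in the results was not tested. The median UMI count per cell was 7030 and 8986 in inflammatory-like cells, against 6297 and 10400 in myofibroblast-like cells. The sorted CAF library gave 14 of the 30 inflammatory-like and 140 of the 231 myofibroblast-like cells of tumor 1. The other 16 inflammatory-like cells came from the all live library, under the minimum of 20 for a sum, so the states were not fitted without the sorted CAF library of that tumor.

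Among the subclusters with at least 20 cells in a tumor, Has1 ranged from 45.4 CPM in the Serpine2-led cells of tumor 2 to 688 CPM in inflammatory-like cells of tumor 1. An unnamed subcluster with 229 cells in tumor 2, led by Ctrb1, an acinar gene, Abcc9, Gng8, Spon2 and Kcnj8, held Dcn at 6643, Ogn at 268 and Aspn at 144.7 CPM. Pericyte markers, which include Abcc9 and Kcnj8, summed to 220 CPM and acinar markers to 378 CPM in it. The Gpnmb-led cells held the highest Bgn, at 4904 CPM in tumor 1, and low Vcan, at 76.2 CPM. Another unnamed subcluster, led by S100a8, Slpi and Krt8, held the highest Cd44, at 134.7 and 263 CPM in tumors 1 and 2, and low Aspn, at 17.2 and 9.88 CPM. Ductal epithelial markers summed to 1391 and 427 CPM in that subcluster, more than in the named states, and their part in its Cd44 was not tested.

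**Figure D4:**
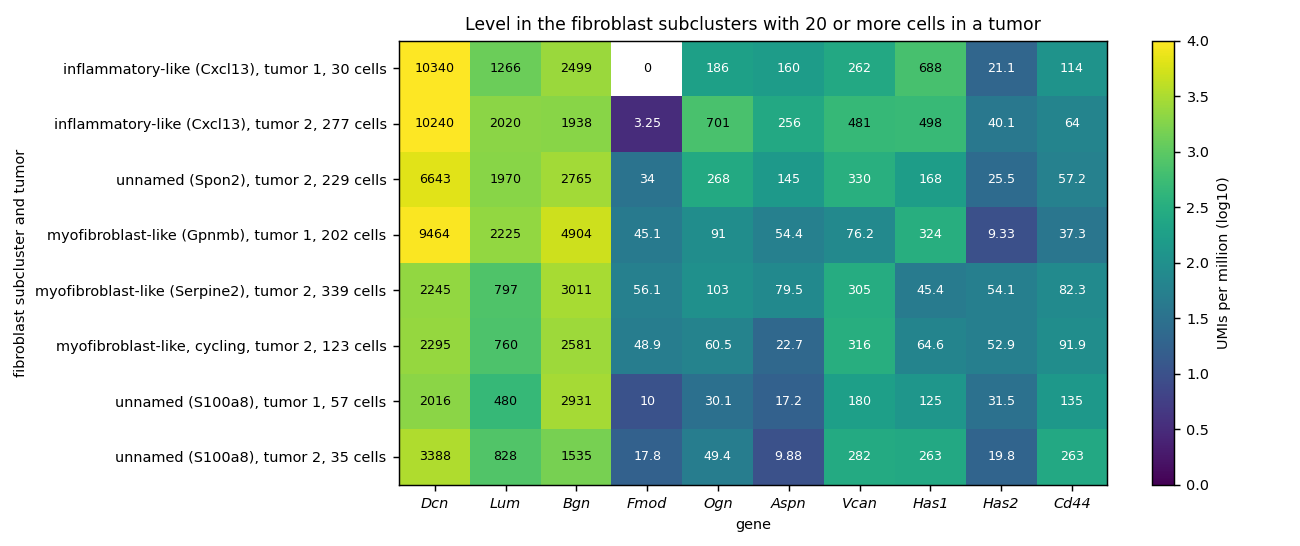
CPM (colour, log10, with the value in each cell) of the 10 genes in the fibroblast subclusters that had at least 20 cells in a tumor. The 2 inflammatory-like rows hold the highest Dcn, Aspn and Has1 and the lowest Fmod among the rows shown, and the Gpnmb-led row holds Dcn at 9464 against 2245 in the Serpine2-led row.

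Between whole libraries, the sorted CAF fraction of tumor 2 held far more of most members than the all live fraction. In tumor 1 the ratios of sorted CAF to all live ran from 0.720 for Vcan to 1.94 for Lum. Those of Fmod, Vcan, Has2 and Cd44 were below 1 there, with counting intervals that held 1 for Fmod and Has2. Dcn stood at 994.5 and 4004 CPM in sorted CAF libraries 1 and 2, against 690 and 377 CPM in the all live libraries. The ratio of sorted CAF to all live was 1.44 in tumor 1 and 10.6 in tumor 2. Lum had ratios of 1.94 and 14.3, Bgn of 1.31 and 15.7, and Has1 of 1.42 and 11.0. Cd44 was lower in the sorted CAF libraries of both tumors, with ratios of 0.722 and 0.374. In sums over a whole library alone, a different number of cells of a type and a different amount of RNA per cell cannot be told apart. By cell counts, fibroblast-like cells made up 13.35% and 73.8% of sorted CAF libraries 1 and 2. They made up 7.7% and 3.49% of all live libraries 1 and 2. The part of these shares in the ratios was not tested.

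None of the 10 members was called between the fractions by edgeR, where 0% of 14030 genes were called, 542 genes passed 0.05 before adjustment, and DESeq2 called 481 genes but no member. The log2 fold change of Dcn was 2.13 ± 0.81 with an adjusted p of 1.0, and without the sorted CAF library of tumor 1 it was 2.76 ± 0.69 with an adjusted p of 0.26. The lowest adjusted p of any member without that library was 0.26.

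Within fibroblast-like cells no difference between the fractions passed the test for any member. Dcn stood at 7324 and 5174 CPM in fibroblast-like cells of sorted CAF libraries 1 and 2, against 6023 and 6056 CPM in those of the all live libraries. Bgn stood at 3935 and 2605 CPM in sorted CAF, against 3816 and 2049 CPM in all live. Has1 stood at 322 and 192 CPM in sorted CAF, against 253 and 218 CPM in all live. The groups overlapped for all 3 genes. The log2 fold changes of the 10 members lay between -0.53 ± 0.42 for Fmod and 0.31 ± 0.31 for Lum, none was called by edgeR (0% of 8901 genes called, 70 with an unadjusted p under 0.05, 19 called by DESeq2), and none was called with the block, where 0.562% of genes were called. Without the sorted CAF library of tumor 1, that of Dcn was -0.19 ± 0.51.

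**Figure D5:**
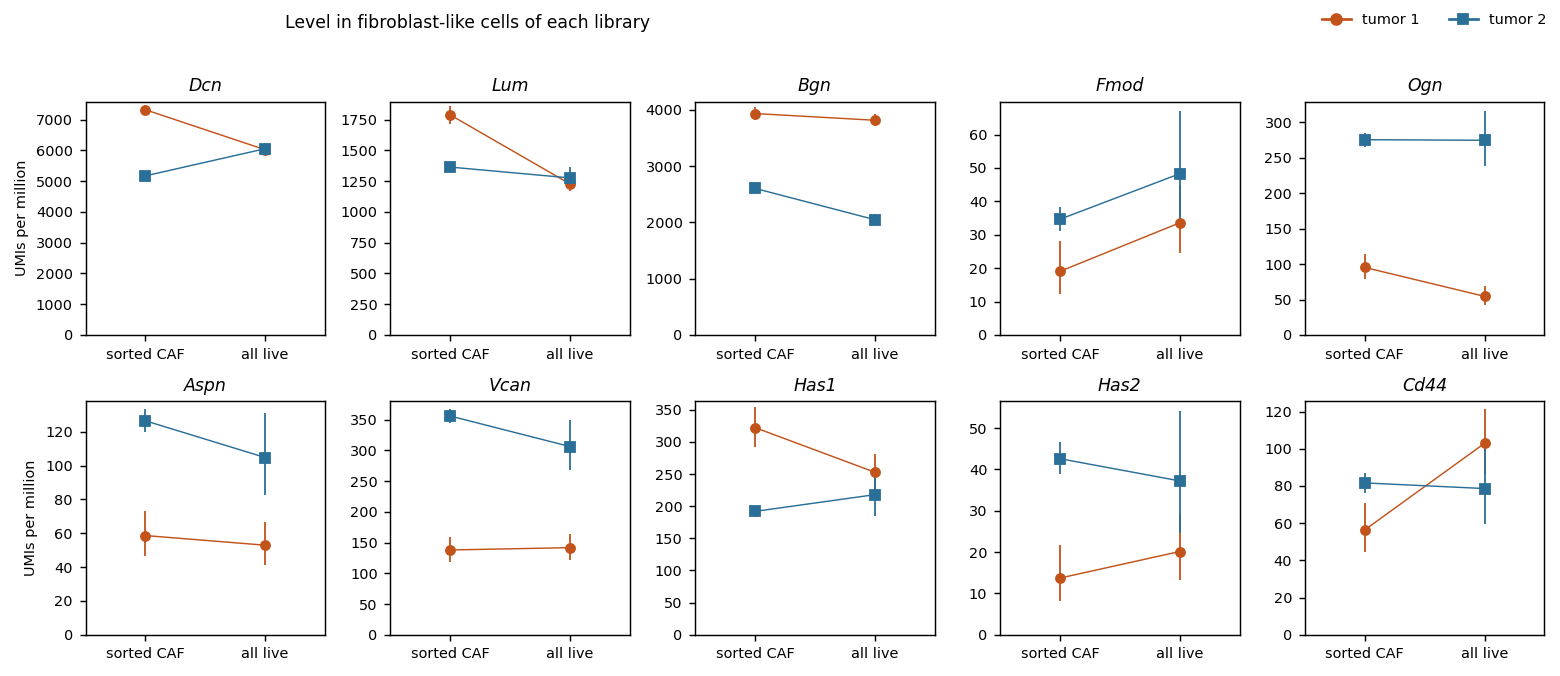
CPM of each gene in fibroblast-like cells of the sorted CAF (left) and all live (right) library of each tumor, with exact Poisson 95% intervals and lines joining the libraries of a tumor. Ogn, Aspn, Vcan and Has2 were lower, and Bgn higher, in both libraries of tumor 1 than in either library of tumor 2.

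The rest of the pathway was described with 4 lists of 110 genes: other proteoglycans, hyaluronan turnover and binding, sugar chain synthesis, and proteases and sulfatases that cleave proteoglycans. Between fibroblast-like and ductal epithelial-like cells, 12 of 20 other proteoglycans tested were higher and 1 lower, with a median log2 fold change of 2.86 against -0.06 over all genes tested, of which 13.2% were higher and 7.81% lower. They included Gpc3, a glypican (8.28 ± 0.72), and Podn, podocan (7.78 ± 0.71), at adjusted p-values of 0.00076 and 0.00078 (edgeR). Of the proteases and sulfatases, 12 of 17 tested were higher and 0 lower, with Mmp3 at 9.83 ± 0.78 and Adamts5, which cleaves versican and aggrecan, at 8.12 ± 1.07. Sugar chain genes were higher in 13 of 32 and lower in 1, and hyaluronan genes higher in 4 of 12 and lower in 0, with Tnfaip6, which binds hyaluronan, at 5.74 ± 0.68.

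Between fibroblast-like and mesothelial-like cells, 2 of 17 proteases and sulfatases tested were higher and none of the other 3 lists had a called gene by edgeR, where 0.393% of all genes tested were higher and 0.342% lower. Mmp3, a matrix metalloproteinase, stood at 237 and 449.5 CPM in fibroblast-like cells of tumors 1 and 2, against 12.1 and 13.6 CPM in mesothelial-like cells. Adamts4, an aggrecanase, stood at 92.7 and 68.6 CPM in fibroblast-like cells, against 13.2 and 10.2 CPM in mesothelial-like cells. Neither gene overlapped between the classes. Sdc4, a syndecan, stood at 236 and 265 CPM in fibroblast-like cells, against 1128 and 1049 CPM in mesothelial-like cells, and was called with the block (-2.05 ± 0.33, adjusted p = 0.038). The block also added 3 genes that were higher in fibroblast-like cells. Sdc1, another syndecan, stood at 239.7 and 126.4 CPM in fibroblast-like cells, against 46.9 and 30.6 CPM in mesothelial-like cells (2.26 ± 0.37, adjusted p = 0.039, edgeR). Mmp2, a gelatinase, stood at 1208 and 536 CPM in fibroblast-like cells, against 89.3 and 49.4 CPM in mesothelial-like cells (3.66 ± 0.65, adjusted p = 0.047, edgeR). Csgalnact1, a chondroitin sulfate chain enzyme, had 111 and 568 UMIs in fibroblast-like cells, against 1 and 2 UMIs in mesothelial-like cells (adjusted p = 0.041, edgeR). With the block 2.17% of all genes tested were called.

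Between the fibroblast states, Tnfaip6 was called higher in inflammatory-like cells without a block (2.78 ± 0.42, adjusted p = 0.013, edgeR), as 1 of 10 hyaluronan genes tested. It stood at 671 and 612 CPM in inflammatory-like cells of tumors 1 and 2, against 103.4 and 91.2 CPM in myofibroblast-like cells. The cell surface proteoglycans Sdc1 (-2.50 ± 0.43, adjusted p = 0.017) and Gpc1 (-3.63 ± 0.71, adjusted p = 0.031) were lower, as 2 of 18 other proteoglycans tested, and no gene of the other 2 lists was called, where 0.503% of all genes tested were higher and 0.784% lower. With the block, where those shares were 2.79% and 3%, 4 of those 18 were higher and 3 lower, 3 of 16 proteases and sulfatases were higher, and 3 of 31 sugar chain genes were lower, while 3 of 10 hyaluronan genes were higher and 2 lower. The proteases were Adamts5 (1.73 ± 0.38), Adamts1 (1.45 ± 0.37) and Adamts15 (1.20 ± 0.38), all known to cleave proteoglycans, and the chain genes were Hs6st2, Chst11 and Csgalnact1. Between the fractions no gene of the 4 lists was called by edgeR with or without the block, in whole libraries or in fibroblast-like cells.

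The genes whose levels were most like those of each member were ranked by Pearson's r of log2(CPM + 1) over 29 sums of a class in a library, among 7127 genes that reached 50 CPM in a sum. The sums share libraries and tumors, so r is a description. Dcn was most like Slit3 (0.956), Cyp1b1 and Col3a1, Lum most like Abi3bp (0.940), Olfml3 and Bmper, and Bgn most like Col5a2 (0.967), Fstl1 and Gpx7. Ogn was most like Loxl1 (0.978), Fgf2 and Sfrp2, and Has1 most like Srpx (0.974), Sult5a1 and Tmeff2. Aspn was most like Gucy1b3 (0.938), Ecm2, its neighbour on chromosome 13 (0.938), and Cnn1, a contractile gene. Vcan (Lrp1, 0.875) and Cd44 (Map3k2, 0.785) had weaker likeness, and Fmod and Has2 did not reach 50 CPM in any sum.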

How the data were processed

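Per the submitters' processing notes, the authors made the matrices with Cell Ranger 2.0.0, CASAVA 1.4 is also named, and the genome was mm10. The deposited values are counts of UMIs per gene and cell, not normalized. Barcodes under 500 detected genes or over 10% mitochondrial UMIs were dropped. Scrublet's own threshold marked 27 of 7984 cells, too few, so the highest scores were left out at a rate of 0.8% per 1000 barcodes (163 cells), leaving 7821. Cells were clustered (scanpy 1.11.5) on 1 of 2 random sets of genes, the one with the markers, and class comparisons were tested on the other set, which holds all 10 genes described. A cluster was named from at least 3 markers at 2-fold or more. The genes described and the gene lists were chosen with earlier results of these data known, and the named genes follow from those lists. UMIs were summed per tumor or library and tested with edgeR 4.0.16 (quasi-likelihood, TMM, filterByExpr with a minimum count of 10, two-sided, Benjamini-Hochberg at 0.05), in R 4.3.3. The tests recovered known changes in simulated data, which does not show how well they do on sums of these tumors.

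Levels are CPM (UMIs per 1000000) with exact Poisson intervals, and shares have Clopper-Pearson intervals. These cover counting error only, and reads were counted as UMIs. A count of 0 was set at a limit of 3 counts. Same-numbered libraries come from 1 tumor, as the series design says, so the fit with the tumor as a block is given where it changes a call. Deviations of paired sums correlated at 0.251 to 0.699. With 2 tumors, p-values do not reach beyond these 2, and in edgeR they also draw on the spread of other genes. Alternatives were RLE size factors, DESeq2 1.42.0, no filter, the block, each sum left out, the other gene set for clustering and doublets kept.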

Additional observations from a re-analysis of the deposited data

Results flagged for a closer look

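For 4 results the 2 tumors went opposite ways with the 95% counting intervals of both ratios clear of 1, and the difference between tumors was not tested. Other ratios also fell on opposite sides of 1, such as Has2 between the states, with an interval that held 1 in at least 1 tumor. Versican in whole libraries had a ratio of sorted CAF to all live of 0.7195 in tumor 1 and 2.265 in tumor 2. Decorin in fibroblast-like cells had a ratio of sorted CAF to all live of 1.216 in tumor 1 and 0.8543 in tumor 2. Lumican had a ratio of inflammatory-like to myofibroblast-like cells of 0.6524 in tumor 1 and 2.548 in tumor 2. Cd44 had a ratio of inflammatory-like to myofibroblast-like cells of 2.246 in tumor 1 and 0.7504 in tumor 2.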

How the results depend on the processing

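RLE size factors changed no call of any of the 10 genes. Between whole libraries DESeq2 called 481 genes. Between fractions in fibroblast-like cells the genes called numbered 19 with DESeq2, 84 with no filter, 50 with the replicate block and 8 with doublets kept, and 0 to 72 with each library left out. Between the fibroblast states the members called numbered 3 with DESeq2, 4 with no filter, 5 with the replicate block, 0 with the other gene set for clustering, 0 with doublets kept, 5 without the Gpnmb-led subcluster and 0 to 3 with each sum left out. The genes called there numbered 220 with no filter, 288 with the block, 7 with the other gene set, 9 with doublets kept, 181 without the Gpnmb-led subcluster and 0 to 198 with each sum left out. Between fibroblast-like and ductal epithelial-like cells 1983 genes were called with no filter and 510 to 2264 with each sum left out. Between fibroblast-like and mesothelial-like cells the members called numbered 3 with DESeq2, 5 with no filter, 2 with the block, 2 with doublets kept and 0 with any sum left out, and the genes called 237, 407 and 127 under DESeq2, no filter and the block and 0 to 4 with each sum left out. With a sum left out, the lone sum of its group is assumed to vary like the others. The cause of these changes was not tested.

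Some uncalled log2 fold changes turned sign. Has2 was -0.077 between fractions in fibroblast-like cells with the block. Between the states Has2 was -0.010 with the block, -0.58 with the other gene set, -0.29 with doublets kept and -0.17 without the Gpnmb-led subcluster, where Cd44 was -0.086. With each library left out, whole-library values ran from -0.45 to 3.42 for Fmod, -0.33 to 4.24 for Ogn, -0.74 to 4.41 for Aspn, -2.34 to 2.56 for Vcan and -0.69 to 4.2 for Has2. In fibroblast-like cells they ran from -0.19 to 0.21 for Dcn, -0.20 to 0.60 for Bgn, -0.87 to 1.84 for Ogn, -0.49 to 0.89 for Aspn, -0.78 to 0.87 for Vcan, -0.25 to 0.39 for Has1 and -1.10 to 0.64 for Has2. Between the states they ran from -0.12 to 1.09 for Lum, -0.72 to 1.75 for Has2 and -0.016 to 0.82 for Cd44, and between fibroblast-like and mesothelial-like cells from -0.19 to 0.81 for Has1 and -0.60 to 0.30 for Cd44. The settings without the Gpnmb-led subcluster and without sorted CAF 1 cells were chosen after the data were seen. The second was run for the 2 class comparisons and changed no member's call there. Depth limits Fmod and Has2, which stayed under 50 CPM in every class of every library, though not in every fibroblast subcluster.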
